A study of Mus musculus with 6 samples.

Results

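The genes described here carry fatty acids into hepatocytes and through their cytosol. They are 10 genes, chosen by symbol from the 56534 genes and loci of the deposited table: the receptor gene Cd36, the fatty acid transport protein genes Slc27a1, Slc27a2, Slc27a4 and Slc27a5, the fatty acid binding protein genes Fabp1, Fabp2, Fabp4 and Fabp5, and Got2. All 10 were found once in the table and all 10 passed the filter on low values, a mean of at least 1 FPKM over the libraries. FPKM are fragments per kilobase of gene, scaled to the mapped fragments of a library. The values were measured by RNA-seq in 6 liver libraries of C57BL/6 mice. The CON libraries (1 to 3) are from wild-type animals. The LKO libraries (1 to 3) are from animals with the genotype CD36-/-, which the title of the series describes as a knockout limited to hepatocytes. All animals, CON and LKO alike, had a high-fat diet with 60% of its energy as fat for 16 weeks, so there is no group on another diet. The labels state no Cre driver, sex or age, and not how many animals a library holds. The p-values therefore measure the spread between libraries, which may be technical in part.

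Long-chain fatty acids reach the liver bound to albumin or in lipoprotein remnants. CD36 is a class B scavenger receptor that binds them at the plasma membrane, and its expression in hepatocytes is known to increase in steatosis. The transport proteins of the SLC27 family are acyl-CoA synthetases as well as transporters, and trap a fatty acid as its CoA ester. The FABP proteins are small cytosolic carriers that hold the fatty acid in a barrel. Several of these genes are targets of the PPAR receptors, which bind DNA with RXR at direct repeats of a half-site separated by a single base (DR1).

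The promoters of Cd36 and Fabp1, known PPAR target genes, are shown with the Slc27a2 promoter, the most abundant transporter among the members. Each is the stretch of 250 bases before the RefSeq start, on the strand of the gene, from build GRCm38.p6. That build is later than the mm9 named in the submitters' processing notes. Capitals mark matches on either strand to DR1 (AGGTCANAGGTCA, with at most 2 mismatches outside N) and exact matches to the CCAAT box, the TATA box in the form TATAAA, and the GC box in the form GGGCGG.
Cd36, chr5:17835897-17836146, minus strand: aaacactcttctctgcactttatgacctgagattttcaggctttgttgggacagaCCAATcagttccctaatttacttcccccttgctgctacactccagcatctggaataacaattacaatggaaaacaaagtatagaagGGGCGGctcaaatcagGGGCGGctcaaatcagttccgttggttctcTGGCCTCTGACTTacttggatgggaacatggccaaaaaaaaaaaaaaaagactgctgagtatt
Fabp1, chr6:71199629-71199878, plus strand: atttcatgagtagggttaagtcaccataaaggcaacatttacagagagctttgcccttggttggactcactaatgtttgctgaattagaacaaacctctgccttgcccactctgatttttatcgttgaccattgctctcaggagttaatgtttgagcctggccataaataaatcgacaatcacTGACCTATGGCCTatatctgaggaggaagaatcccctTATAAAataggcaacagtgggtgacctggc
Slc27a2, chr2:126552774-126553023, plus strand: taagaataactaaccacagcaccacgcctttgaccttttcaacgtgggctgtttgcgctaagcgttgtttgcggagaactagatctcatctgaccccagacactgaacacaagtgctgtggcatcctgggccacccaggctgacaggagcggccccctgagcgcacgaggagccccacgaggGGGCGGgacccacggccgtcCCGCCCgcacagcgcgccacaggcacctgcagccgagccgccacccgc
The Fabp1 stretch held a DR1 match with 1 mismatch, 67 to 55 bases before the start on the opposite strand (TGACCTATGGCCT as read on the gene's strand), and a TATAAA 30 to 25 bases before the start. The Cd36 stretch held a DR1 match with 2 mismatches, 63 to 51 bases before the start (TGGCCTCTGACTT on the gene's strand), a CCAAT and 2 copies of GGGCGG. Of 32851 promoters of this length in the table, 3.24% held a DR1 match with up to 2 mismatches and 0.484% one with up to 1. CCAAT was found in 33.8% of them, TATAAA in 12.4% and GGGCGG in 32.7%. Promoters were matched for 7 of the 10 members, and no DR1 match was found in those of Slc27a1 (3 starts), Slc27a2, Slc27a4, Fabp2 and Got2. Slc27a2 held GGGCGG once on each strand. These matches describe letters and no binding was measured.

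Facts of the libraries bear on all values below. LKO 3 stood apart from its group: over 11104 tested genes, its log2 values correlated best with CON 3 (r = 0.976), and at 0.949 and 0.933 with LKO 1 and LKO 2. LKO 1 and LKO 2 correlated at 0.977 with each other. The fold changes of the members, the tested ratios and the counts of the gene lists are therefore also given without LKO 3. This library was singled out by its likeness to CON. Leaving out such a library can by itself widen a difference and lower its p-values. The p-values without LKO 3 are therefore descriptive. No member passed when any other single library was left out. How many reads each library had is unknown. Over all tested genes the median difference was -0.23 (log2), and -0.01 after median-ratio scaling. Scaling the libraries thus moves genes up, though low genes by less on the log scale used here. The log2 fold change of Slc27a2 went from -0.53 to -0.26, and that of the low gene Cav1 from -0.53 to -0.37. Long genes were lower as a class. The median log2 fold change was 0.17 over 1150 genes with a listed length of up to 1000 bases and -0.35 over 3553 genes of over 4000 bases. The hepatocyte marker genes had a summed level of 43734 to 67812 FPKM for 8 markers. Alb and Apoa1 made up most of that sum, with log2 fold changes of -0.70 and 0.72. Of the 8 markers, 7 were negative, and Cps1 and Hnf4a were lower in LKO 1 and LKO 2 than in any CON library. Among markers of other tissues, the adipocyte genes Retn and Lep were listed at 0 in all libraries and Adipoq and Plin1 at no more than 0.09 and 0.02 FPKM. The adipsin gene Cfd of that list was at 12.49, 18.68 and 0.76 FPKM across CON 1 to 3 and at 0.51 to 0.75 FPKM in LKO. Its lipid droplet gene Cidec, which fatty livers also express, was at 6.77 to 53.89 FPKM in CON and 20.34 to 71.59 FPKM in LKO. The enterocyte genes Alpi, Lct and Fabp6 were listed at 0, but Apoa4 of the same list was at 282 to 1901 FPKM, a gene that mouse liver also expresses.

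The members spanned levels per length from 3.18 FPKM (Fabp4 in CON 2) to 16067 FPKM (Fabp1 in CON 3) in CON livers. Fabp1, the liver fatty acid binding protein, was the highest member in every library, and ranked 7 among 11104 genes by its CON mean. It was followed by Slc27a2, in second place in 6 of 6 libraries. Slc27a5, Got2 and Fabp2 came next in CON, at 397, 273 and 173 FPKM on average, and their CON ranges did not overlap. In LKO the ranges of these 3 genes overlapped, at 175 to 294 FPKM for Slc27a5, 143 to 241 FPKM for Got2 and 180 to 229 FPKM for Fabp2. Cd36, Slc27a1, Slc27a4, Fabp4 and Fabp5 lay lower, between 2.73 and 61.95 FPKM, and their order changed from library to library. Levels per length are least certain for Fabp4 and Fabp5. The listed length equals that of the longest GENCODE M21 transcript for all 55450 genes found there, and for these genes that is an intron-retaining transcript of 4231 and 3238 bases. Their longest coding transcripts have 896 and 987 bases, so an FPKM computed with the listed length would be lower by a factor of 4.72 and 3.28 than one computed with the coding length. No label says which length entered the FPKM. A comparison of 1 gene between libraries does not depend on it in this way.

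**Figure D1:**
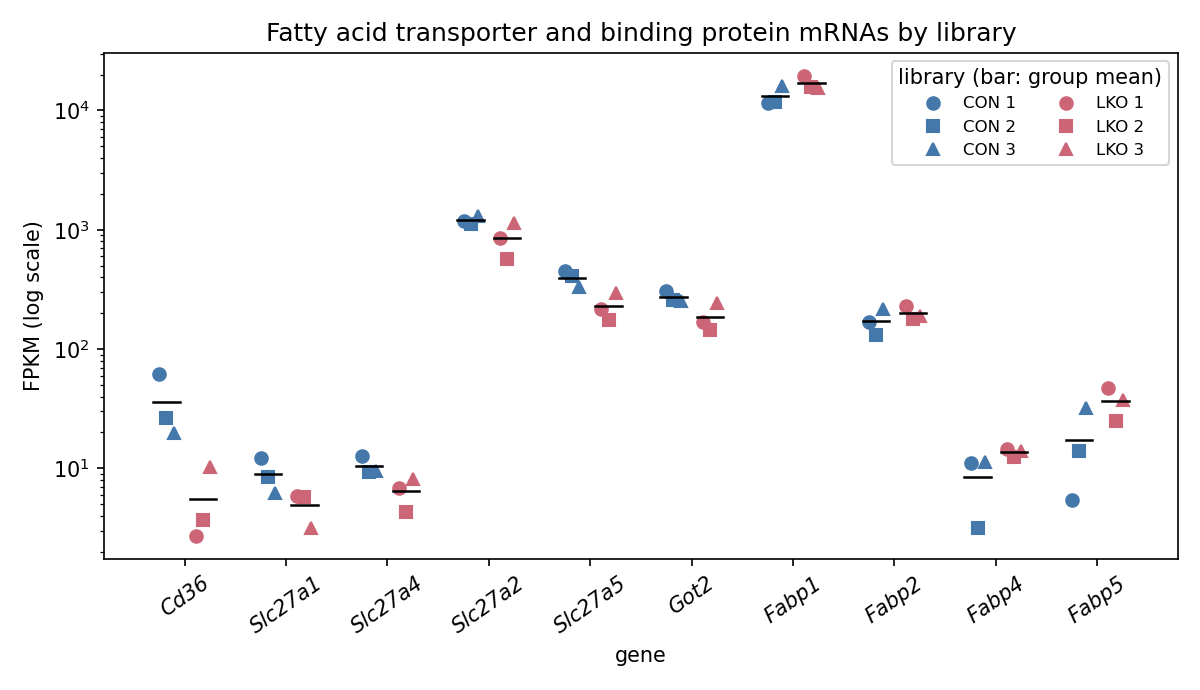
FPKM (log scale) of the 10 genes in each of the 6 libraries, CON in blue and LKO in red, with the mean of each group as a bar. All LKO points lie below all CON points for Cd36, Slc27a1, Slc27a4, Slc27a5 and Got2 and above them for Fabp4, and the other 4 genes overlap.

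In LKO livers the membrane transporters and Got2 were listed lower and the 4 cytosolic binding proteins higher, though Fabp1 was lower under quantile normalization. This split was also one of length. The longest coding transcripts of the 4 binding protein genes have 553 to 987 bases, and those of the 6 lower members 2288 to 4054. By listed length, short genes were higher and long genes lower as a class. With the trend over coding lengths removed, the 4 genes were at 0.10 to 1.23 and the 6 at -2.20 to -0.25. How much of the split is due to length was not tested. Of 10 members, 6 had a negative and 4 a positive log2 fold change, where 71.63% of all tested genes were negative. None passed an adjusted p of 0.05 over all genes (limma), where 0.00901% of 11104 genes passed lower (1 gene) and 0% higher. At an unadjusted p under 0.05, 5 members were lower and 1 higher, where 18.9% of all genes were lower and 3.25% higher. The groups did not overlap for 5 members in the lower direction, against 24.3% of all genes, and for 1 in the higher direction, against 3.92%. These 6 members had an exact two-sided permutation p of 0.1, the lowest possible with 3 libraries in each group. Without LKO 3, 5 of 10 members passed lower (Cd36, Slc27a2, Slc27a4, Slc27a5 and Got2) and 0 higher, where 18.9% of 11150 genes passed lower and 4.67% higher. With median-ratio scaling also applied, only Cd36 of these passed without LKO 3, and with the length trend removed only Cd36 and Slc27a5. Under those settings 8.99% and 5.91% of genes passed lower and 9.86% and 6.16% higher. The last 2 settings were chosen after seeing the data. With limma array weights, 5 members passed lower and 3 higher, where 37.6% of all genes passed lower and 15.2% higher.

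**Figure D2:**
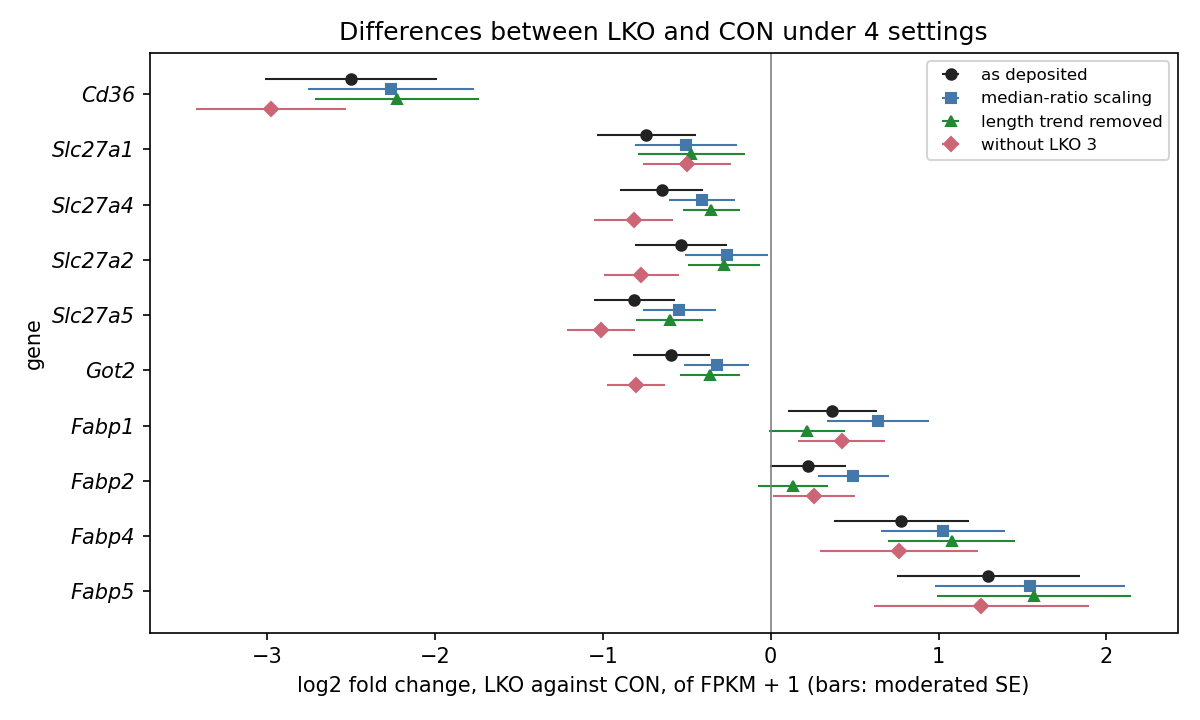
Log2 fold change of LKO against CON on the log2(FPKM + 1) scale for the 10 genes, with the moderated SE as bars, for the values as deposited, after median-ratio scaling, with the trend of each library with gene length removed, and without LKO 3. Cd36 lies between -2.98 and -2.23, and the 4 Fabp genes lie to the right of 0 and the other genes to the left under all 4 settings shown, while Fabp1 was at -0.42 under quantile normalization, which is not drawn. The length trend drawn uses the listed lengths, with Fabp1, Fabp4 and Fabp5 at 0.21, 1.08 and 1.57. With the lengths of the longest coding transcripts these genes were at 0.10, 0.68 and 1.23.

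Cd36 encodes the deleted receptor. Across the libraries in order it was at 61.95, 26.49 and 19.66 FPKM across CON 1 to 3, and at 2.73, 3.70 and 10.22 FPKM across LKO 1 to 3. No LKO library reached the CON range, and LKO 3 came closest. The log2 fold change was -2.50 (SE 0.51), below that of all but 0.153% of tested genes (limma, adjusted p = 0.163), and -2.98 without LKO 3 (adjusted p = 0.0164). LKO 1 and LKO 2 alone had a mean 11.2-fold below that of CON, while the mean over all LKO libraries was 6.49-fold below it. By rank among the 11104 genes, Cd36 was at place 1311, 2318 and 2935 across CON 1 to 3 and at 7886, 6559 and 4260 across LKO 1 to 3. Its CON libraries differed among themselves by 3.15-fold. CON 1, with the highest Cd36, also had the lowest share of summed FPKM in the major urinary protein genes, 6.22% against 15.6% to 29.4% in the other libraries. With the mitochondrial and major urinary protein genes removed and the libraries rescaled, the log2 fold change of Cd36 was -2.58 (limma, adjusted p = 0.206). This takes only the share of these genes out of the scale. Any other part of the difference in the Cd36 result was not tested. Without CON 1 the log2 fold change of Cd36 was -2.03 (adjusted p = 0.486, limma).

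Endothelial cells and macrophages also express Cd36, and in bulk tissue fewer cells of a type and less RNA per cell cannot be told apart. The summed FPKM of 8 endothelial markers was 43.9 to 110.4 in CON and 51.8 to 79.0 in LKO. That of 8 macrophage markers was 122.6 to 181.9 in CON and 91.1 to 183.5 in LKO, with 7 of 8 macrophage markers lowest in LKO 1. Relative to these sums, Cd36 was lower in every LKO library than in every CON library. A few genes weigh heavily in the sums. In CON 1, Clec4g made up 44.41 of 110.36 FPKM for the endothelial list. Clec4f and Cd5l made up 62.44 and 49.57 of 173.75 FPKM for the macrophage list there. Relative to single markers of these lists, Cd36 overlapped between the groups only for Kdr. There CON 3 (Kdr 5.59 FPKM) fell below LKO 3 (Kdr 2.58 FPKM). These ratios were not planned and not tested, and they cannot tell hepatocyte RNA from that of other cells. Per 100 FPKM of macrophage markers it was at 35.7, 14.6 and 16.0 FPKM across CON 1 to 3 and at 2.998, 2.02 and 6.07 FPKM across LKO 1 to 3. Per 100 FPKM of endothelial markers the lowest CON value was 21.4 FPKM (CON 3) and the highest LKO value 15.1 FPKM (LKO 3).

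Slc27a2 encodes FATP2, the main transporter of this family in liver and also a very-long-chain acyl-CoA synthetase. It was at 1181, 1111 and 1301 FPKM across CON 1 to 3 and at 857, 571 and 1148 FPKM across LKO 1 to 3. LKO 1 and LKO 2 lay below all CON libraries and LKO 3 within their range. Its log2 fold change was -0.53 (SE 0.28, limma, adjusted p = 0.273). It was -0.77 without LKO 3 (adjusted p = 0.0483) and -0.26 after median-ratio scaling, and -0.27 without LKO 2, its lowest library.

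Slc27a5 encodes FATP5, a liver protein that also activates bile acids with CoA before their conjugation. It was at 454.82, 407.97 and 329.24 FPKM across CON 1 to 3 and at 217.08, 174.99 and 294.42 FPKM across LKO 1 to 3. The groups did not overlap, and LKO 3 was 1.12-fold below CON 3. The log2 fold change was -0.81 (SE 0.24, limma, adjusted p = 0.179), and -1.01 without LKO 3 (adjusted p = 0.0238). It was -0.54 after median-ratio scaling and -0.60 with the length trend removed. Its log2 fold change was below that of Slc27a1 as reported, but above it with a pseudocount of 0.1 and without LKO 1, LKO 2 or CON 3.

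The plasma membrane and endoplasmic reticulum proteins FATP1 and FATP4 are encoded by Slc27a1 and Slc27a4, which were expressed at a low level. Slc27a1 was at 12.23, 8.51 and 6.24 FPKM across CON 1 to 3 and at 5.90, 5.81 and 3.14 FPKM across LKO 1 to 3. The groups did not overlap, but LKO 1 was close to CON 3. Its log2 fold change was -0.74 (SE 0.29, limma, adjusted p = 0.212). Slc27a1 differed from the other lower members in that LKO 3 was its lowest library, and its log2 fold change was -0.50 without LKO 3. For the other 5 lower members LKO 3 was the highest of the LKO libraries. Slc27a4 was at 12.74, 9.36 and 9.49 FPKM across CON 1 to 3 and at 6.90, 4.33 and 8.21 FPKM across LKO 1 to 3. Its groups did not overlap, with a log2 fold change of -0.65 (SE 0.25, limma, adjusted p = 0.205), -0.82 without LKO 3 (adjusted p = 0.0478) and -0.42 without LKO 2.

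The composition of the SLC27 family overlapped between the groups. Of the summed FPKM of the 6 family genes, Slc27a2 took 71.1% to 79.0% in CON and 75.4% to 78.9% in LKO. Slc27a5 took 20.0% to 27.4% in CON and 20.0% to 23.1% in LKO. These shares do not depend on the scale of a library, and their differences of 3.59 and -3.54 percentage points had exact two-sided permutation p-values of 0.4 and 0.3 (adjusted over 11 shares and ratios, 0.629 each). Without LKO 3 they were 2.98 and -3.11 percentage points, without CON 3 they were 6.04 and -5.86, and without CON 1 they were 2.07 and -2.17. The log2 ratio of Slc27a5 to Slc27a2 was -1.60 ± 0.33 in CON and -1.88 ± 0.15 in LKO (SD, n = 3 each, exact permutation p = 0.4). The difference of -0.28 was -0.24 without LKO 3, -0.47 without CON 3 and -0.17 without CON 1. The other family members were at most 0.80 FPKM in any library. Of these, Slc27a3 was at 0.27, 0.10 and 0.17 FPKM across CON 1 to 3 and at 0.63, 0.80 and 0.52 FPKM across LKO 1 to 3. It is named here after its values were seen, and it was below the filter and not tested.

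Got2 encodes mitochondrial aspartate aminotransferase, which was also described at the plasma membrane as a fatty acid binding protein. It was at 307.18, 260.02 and 252.07 FPKM across CON 1 to 3 and at 168.97, 143.34 and 241.18 FPKM across LKO 1 to 3. The groups did not overlap, but LKO 3 was close to CON 3. The log2 fold change was -0.59 (SE 0.23, limma, adjusted p = 0.207), and -0.80 without LKO 3 (adjusted p = 0.0264). Over the libraries, Got2 and Slc27a4 had the most similar profiles of any pair of members, with a root mean square difference of 0.119 in centred log2 values. Got2 also lay within 0.138 and 0.165 of Slc27a5 and Slc27a2. The ratio of Slc27a2 to Got2 was 3.85 to 5.16 in CON and 3.98 to 5.07 in LKO, and these ranges overlapped.

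Fabp1 encodes the main fatty acid carrier of the hepatocyte cytosol. It was at 11647, 11800 and 16067 FPKM across CON 1 to 3 and at 19456, 15673 and 15551 FPKM across LKO 1 to 3. CON 3 lay within the LKO range. Its log2 fold change was 0.37 (SE 0.27, limma, adjusted p = 0.405). It was 0.42 without LKO 3, 0.21 with the length trend removed and -0.42 under quantile normalization (adjusted p = 0.476), so its direction depends on the scaling. With a listed length of 553 bases, Fabp1 belongs to the short genes, which were higher as a class. Fabp2, known as the intestinal binding protein, was at 169.34, 132.42 and 217.78 FPKM across CON 1 to 3 and at 229.43, 179.97 and 188.67 FPKM across LKO 1 to 3. The groups overlapped, with a log2 fold change of 0.22 (SE 0.23, limma, adjusted p = 0.541), which was 0.05 without CON 2, 0.40 without CON 3 and 0.26 without LKO 3. Its length is 965 bases, and its profile was nearest to that of Fabp1 among the members, at a root mean square difference of 0.134.

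The ratio of the main carrier to the main transporter separated the groups. Fabp1 was at 9.86, 10.6 and 12.4 times Slc27a2 across CON 1 to 3 and at 22.7, 27.5 and 13.5 times across LKO 1 to 3. LKO 3 was close to CON 3. This ratio was chosen after its values were seen and was not tested. The log2 ratio of Fabp1 to Got2 was 5.58 ± 0.38 in CON and 6.54 ± 0.46 in LKO, and that of Cd36 to Got2 was -3.10 ± 0.71 and -5.26 ± 0.70 (SD, n = 3 each). Neither pair of groups overlapped, though for Fabp1 to Got2 LKO 3 was only just above CON 3 (6.01 against 5.99). Both had an exact two-sided permutation p of 0.1, the smallest that 3 against 3 libraries allow (adjusted, 0.55). Their differences of 0.96 and -2.17 were 1.23 and -2.52 without LKO 3. Ratios of a short to a long gene also carry the length trend, whose part in them was not tested.

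**Figure D3:**
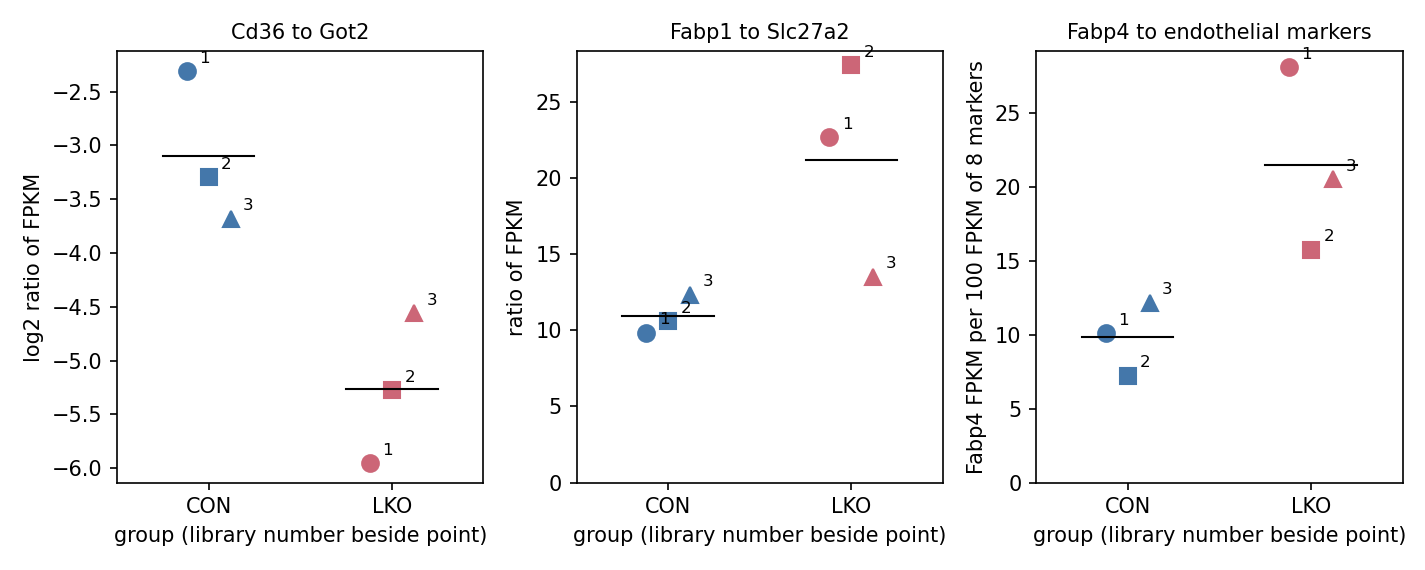
Ratios within each library, by group, with the library number beside each point and the group mean as a bar: the log2 ratio of Cd36 to Got2, the ratio of Fabp1 to Slc27a2, and Fabp4 per 100 FPKM of 8 endothelial markers. The groups do not overlap in the 3 panels, and LKO 3 lies nearest to CON for the first pair. Relative to the endothelial marker Stab1 alone, which is not drawn, the Fabp4 groups overlap.

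Fabp4 encodes the adipocyte binding protein, which capillary endothelial cells and macrophages also make. It was at 11.17, 3.18 and 11.22 FPKM across CON 1 to 3 and at 14.59, 12.46 and 13.91 FPKM across LKO 1 to 3. Every LKO library lay above every CON library, CON 1 and CON 3 by little and CON 2 by 3.92-fold or more. The log2 fold change was 0.78 (SE 0.40, limma, adjusted p = 0.274). Without CON 2 it was 0.26 (adjusted p = 0.486), and without LKO 3 it was 0.76. In CON 2 all 8 endothelial markers were at their lowest of the CON libraries, with a sum of 43.9 FPKM against 110.4 and 92.1 in CON 1 and CON 3. Per 100 FPKM of these markers Fabp4 was at 10.1, 7.25 and 12.2 FPKM across CON 1 to 3 and at 28.2, 15.8 and 20.6 FPKM across LKO 1 to 3, with no overlap. This ratio was chosen after the values were seen. Clec4g weighs heavily in its sum. Relative to single markers of this list, Fabp4 overlapped between the groups only for Stab1. There LKO 2 (Stab1 17.59 FPKM) fell below CON 1 and CON 3 (Stab1 13.19 and 11.70 FPKM). Of 6 adipocyte markers, Retn and Lep were listed at 0 and Adipoq and Plin1 at no more than 0.09 FPKM in any library, while Cfd had a mean of 10.6 FPKM in CON and 0.60 FPKM in LKO and Cidec one of 27.9 and 53.3 FPKM. The part of the last pair in the Fabp4 values was not tested.

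Fabp5, the epidermal binding protein, which macrophages also express, had the highest log2 fold change of the members as reported, though Fabp4 was above it without CON 1 (1.03 against 0.70). It was at 5.48, 14.10 and 32.31 FPKM across CON 1 to 3 and at 47.05, 25.07 and 37.59 FPKM across LKO 1 to 3. CON 3 lay within the LKO range, and CON alone spread over 5.90-fold. Its log2 fold change was 1.30 (SE 0.54, limma, adjusted p = 0.221), and 0.70 without CON 1, 1.88 without CON 3 and 1.26 without LKO 3. The copies of this gene that the table names, Fabp5l2 and an annotated pseudogene, were listed at 0 in all libraries. The ratio of Fabp5 to Fabp4 was 0.491, 4.43 and 2.88 across CON 1 to 3 and 2.01 to 3.23 in LKO, so the genes did not keep a common proportion in CON. Of the other Fabp family genes, Fabp7, the brain form, passed the filter, at 3.95, 3.32 and 5.81 FPKM across CON 1 to 3 and 6.72, 5.22 and 6.52 FPKM across LKO 1 to 3 (log2 fold change 0.44, limma, adjusted p = 0.268). Fabp3 and Fabp12 were at no more than 0.40 FPKM, and Fabp6, Fabp9 and Pmp2 were listed at 0 in all libraries. Fabp1 took 98.4% to 98.7% of the summed FPKM of the family in every library.

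Genes with profiles nearest to a member were found by the root mean square difference of centred log2(FPKM + 1) values over the 6 libraries, which is 0 for identical profiles. Genes picked this way share the member's high and low libraries by choice, so that likeness is not a separate result. Cd36 itself varied by 1.43 around its mean on the root mean square measure. Among the nearest to it were the thyroxine-binding globulin gene Serpina7 (0.405), the insulin signalling gene Pik3r1 (0.445) and the serpin gene Serpina3m (0.462). Serpina7 was at 32.00, 29.84 and 14.80 FPKM across CON 1 to 3 and at 3.59, 3.47 and 7.96 FPKM across LKO 1 to 3. As for Cd36, LKO 3 was the highest LKO library for all 3 of these genes, and for Serpina3m it lay above CON 3. The nearest to Fabp5 were the major urinary protein gene Mup20 (0.226), the oxysterol hydroxylase gene Cyp7b1 (0.239) and the glucuronosyltransferase gene Ugt2b38 (0.275). Mup20 and Cyp7b1 are known as male-biased genes of mouse liver. Cyp7b1 was at 56.52, 128.70 and 303.72 FPKM across CON 1 to 3 and at 371.93, 149.32 and 360.68 FPKM across LKO 1 to 3. CON 1, the lowest library for Fabp5, was also the lowest for Mup20, Cyp7b1 and Ugt2b38, which were picked for their likeness to it. The part of this pattern in the Fabp5 difference was not tested.

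**Figure D4:**
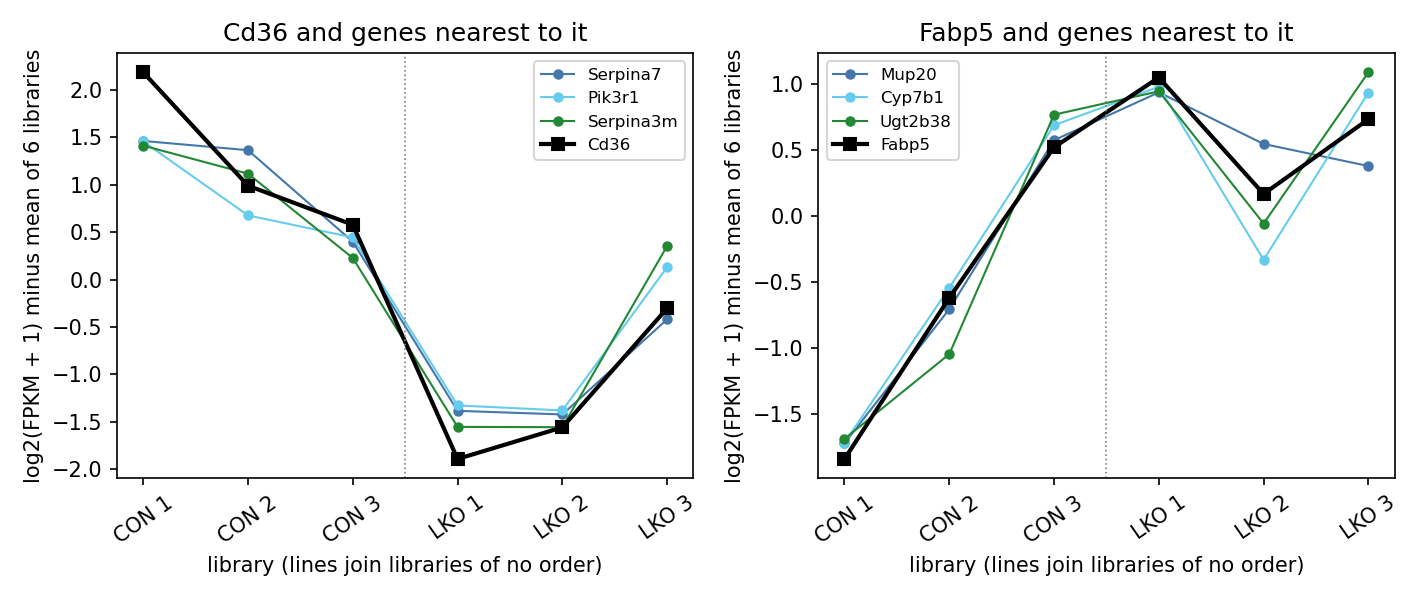
Centred log2(FPKM + 1) values over the 6 libraries for Cd36 with 3 of the genes nearest to it and for Fabp5 with its 3 nearest genes. The Cd36 set is highest in CON 1, lowest in LKO 1 and LKO 2 and higher than these in LKO 3, and the Fabp5 set is lowest in CON 1. The genes were picked for their likeness to Cd36 or Fabp5 over these same libraries.

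For each of the other members the nearest gene was closer than for Cd36 or Fabp5. These members varied by 0.257 to 0.648 around their mean, and Fabp5 by 0.976. Among them, those that varied least did not have the closest genes. Slc27a2 was nearest to Ttc33 (0.032), Mgat2 (0.042) and Nol11 (0.045), and Slc27a4 to Serinc5 (0.043), the peroxisome assembly gene Pex19 (0.045) and Snx7 (0.051). Slc27a5 was nearest to the amino acid transporter gene Slc38a4 (0.051), and Got2 to the lysosomal gene Psap (0.035). Fabp1 was nearest to E4f1 (0.066) and to the translation initiation factor gene Eif3k (0.074). Slc27a1 was nearest to the carotenoid oxygenase gene Bco2 (0.115), and Fabp2 to Ajuba (0.060). Fabp4 was nearest to an assembled locus with no gene name (0.128) and to Ocel1 (0.197), which CON 2 also had at its lowest.

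Around the members, 10 lists held 81 genes of fatty acid uptake, activation and transport and of the regulators and metabolic partners of the members. Of 61 tested, 0 passed over all genes in either direction (limma). At an unadjusted p under 0.05, 23 were lower and 0 higher, where 18.9% and 3.25% of all genes were. Their median log2 fold change was -0.42, against -0.23 for all genes. In all, 51 of 61 were negative, and 43 after median-ratio scaling, where 71.63% and 51.37% of all genes were. The groups did not overlap for 29 of the 61 in the lower direction and 0 in the higher, against 24.3% and 3.92% of all genes. Without LKO 3, 19 of 61 passed lower and 0 higher, where 18.9% and 4.67% of all genes passed. With median-ratio scaling as well, 10 passed lower and 4 higher, where 8.99% and 9.86% of all genes did. With the length trend removed instead, 7 passed lower and 3 higher, where 5.91% and 6.16% of all genes did.

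Among genes that act at the vessel wall, 0 of 7 tested passed in either direction (median log2 fold change -0.35), with 3 lower at an unadjusted p under 0.05. For all lists here and below, 0 genes were higher at that p. The lipase genes Lipg and Lipc did not overlap between the groups, and 24.3% of all genes also lay wholly lower in LKO. Lipg was at 6.95, 6.53 and 4.71 FPKM across CON 1 to 3 and at 2.72, 2.04 and 2.14 FPKM across LKO 1 to 3 (log2 fold change -1.09, limma, adjusted p = 0.163). Lipc had a log2 fold change of -0.67 (adjusted p = 0.179, limma). Lpl, the lipoprotein lipase gene, was at 1.81 to 2.36 FPKM in CON and 2.35 to 3.71 FPKM in LKO. Without LKO 3, 3 of 7 passed lower, and for this and the lists below the share of all genes that did was the 18.9% given above.

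Of the long-chain acyl-CoA synthetases, which activate fatty acids inside the cell, 0 of 4 tested passed (median -0.59), with 2 lower at an unadjusted p under 0.05 and 1 past the adjusted threshold without LKO 3. Acsl5 was at 95.32, 71.29 and 79.42 FPKM across CON 1 to 3 and at 46.75, 29.39 and 58.45 FPKM across LKO 1 to 3, with no overlap (log2 fold change -0.90, limma, adjusted p = 0.179). Acsl1, the most abundant of them, was at 555 to 630 FPKM in CON and 324 to 576 FPKM in LKO, which overlapped. Acsl3 had a log2 fold change of -0.79 and Acsl4 one of -0.20. Of the class B scavenger receptors and caveola genes 0 of 5 passed (median -0.26), with 2 lower at that p and 1 passing without LKO 3. Scarb1, the HDL receptor gene of the same family as Cd36, was at 92.4 to 101.4 FPKM in CON and 77.3 to 97.2 FPKM in LKO (log2 fold change -0.08, limma, adjusted p = 0.769). Scarb2, the lysosomal member of that family, was at 43.7 to 45.1 FPKM in CON and 17.2 to 36.0 FPKM in LKO (log2 fold change -0.90, limma, adjusted p = 0.179). Cav1 (-0.53), Cavin1 (0.27) and Cavin2 (-0.26) encode coat proteins of caveolae and were below 4 FPKM in every library.

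Other cytosolic carriers of acyl-CoA and lipids did not pass either (0 of 6, median -0.41), with 1 lower at an unadjusted p under 0.05 and 1 passing lower without LKO 3. Dbi, the acyl-CoA binding protein, was at 1120 to 1247 FPKM in CON and 967 to 1624 FPKM in LKO (log2 fold change 0.10), and its listed length is 660 bases. Acbd5, a peroxisomal acyl-CoA binding protein gene, had a log2 fold change of -0.85 (adjusted p = 0.165, limma) with no overlap. Scp2 was at -0.43, Acbd3 at -0.47 and Acbd4 at -0.39. In the carnitine shuttle 0 of 6 passed (median -0.37), with 1 lower at that p and 1 passing without LKO 3. Cpt1a, which controls entry into mitochondria, was at 138 to 166 FPKM in CON and at 104.81, 78.91 and 152.92 FPKM across LKO 1 to 3. Its log2 fold change was -0.50, with Crat at -0.46, Slc25a20 at -0.44 and Slc22a5 at -0.29.

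Among partners of CD36 in signalling and palmitoylation 0 of 8 passed (median -0.35), with 3 lower at an unadjusted p under 0.05 and 3 passing lower without LKO 3. Lypla1, a depalmitoylating enzyme gene, was at 60.2 to 76.5 FPKM in CON and 41.4 to 49.9 FPKM in LKO (log2 fold change -0.57, limma, adjusted p = 0.179). Zdhhc4 and Zdhhc5, palmitoyltransferase genes, had log2 fold changes of -0.21 and -0.72. The SRC-family kinase genes Yes1 and Lyn were at -0.46 and -0.42. Of the regulators 0 of 11 passed (median -0.59), with 4 lower at that p and 5 passing without LKO 3. Pparg, a receptor that induces Cd36 and Fabp4, was at 6.06, 6.58 and 4.11 FPKM across CON 1 to 3 and at 1.58, 1.22 and 1.49 FPKM across LKO 1 to 3, a log2 fold change of -1.42. The adjusted p of Pparg was 0.163 (limma), and its part in the levels of Cd36 and Fabp4 was not tested. Ppara, the main PPAR of hepatocytes and a regulator of Fabp1, was at 101.10, 92.34 and 111.15 FPKM across CON 1 to 3 and at 75.67, 55.81 and 69.97 FPKM across LKO 1 to 3 (log2 fold change -0.60, limma, adjusted p = 0.18). Rxra, the DNA-binding partner of both, was at 143.32, 119.06 and 134.12 FPKM across CON 1 to 3 and at 55.17, 52.54 and 140.38 FPKM across LKO 1 to 3. LKO 3 lay within the CON range for Rxra, and without it the log2 fold change went from -0.82 to -1.28 (adjusted p = 0.0113, limma). The xenobiotic receptor gene Ahr was at -0.67 and the liver factor gene Cebpa at -0.67.

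The malate-aspartate shuttle, in which Got2 acts, had 0 of 6 past the threshold (median -0.59), with 4 lower at an unadjusted p under 0.05 and 3 passing lower without LKO 3. Mdh1 was at 350.38, 263.67 and 245.57 FPKM across CON 1 to 3 and at 156.02, 107.93 and 213.93 FPKM across LKO 1 to 3 (log2 fold change -0.88, limma, adjusted p = 0.185). The carrier genes Slc25a13, Slc25a12 and Slc25a11 were at -0.71, -0.73 and -0.48, with no overlap between the groups for each. They are named for their small p, and 24.3% of all genes also lay wholly lower in LKO. Got1, the cytosolic isoenzyme of Got2, was at 42.7 to 93.7 FPKM in CON and 35.9 to 71.0 FPKM in LKO (log2 fold change -0.13). For bile acid side chains and conjugation, the other function of Slc27a5, 0 of 7 passed (median -0.48), with 3 lower at that p and 1 passing without LKO 3. Baat, which conjugates the bile acid CoA esters, was at 97.6 to 130.2 FPKM in CON and 73.7 to 83.7 FPKM in LKO (log2 fold change -0.50, limma, adjusted p = 0.196). The peroxisomal genes Abcd3 and Amacr were at -0.61 and -0.53, and Cyp27a1 at -0.38.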

How the data were processed

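Liver RNA of 3 CON and 3 LKO libraries was compared. The authors deposited 1 table of FPKM per gene with 2 decimals. Per the submitters' processing notes, HISAT2, StringTie and build mm9 were used. Their versions and options, and the annotation and strandedness, are not stated there. The table's lengths equal the longest GENCODE M21 transcript (a GRCm38 annotation) for all 55450 genes found there. Of 56536 lines, 2 held no values. Depth in reads is unknown, and FPKM of a library summed to 831928 to 1271880.

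The 11104 genes that averaged 1 FPKM or more were taken to log2(FPKM + 1) and fitted with limma 3.58.1 (R 4.3.3, eBayes with trend, two-sided), with Benjamini-Hochberg adjustment over all of them. This scale understates changes of low genes. SE is limma's moderated SE. Shares and ratios had exact permutation tests over libraries (scipy 1.17.1). The fit was tested on simulated data. The members and lists were chosen with earlier results of these data known. The text names the members, up to 4 genes per list with the smallest p, Ppara, Pparg and Rxra, and the nearest profiles, of which a few genes are not reported here. Scarb1, Dbi, Got1, Zdhhc4 and the cell type markers shown are named outside this rule, after their values were seen. Alternatives were other pseudocounts, filters, scalings, length-trend removal, array weights, a replicate block and each library left out. The library numbers share only a number: deviations of same-numbered libraries correlated at -0.046, 0.168 and 0.0701.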

Additional observations from a re-analysis of the deposited data

How the results depend on the processing

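Every log2 fold change of a member kept its direction in 18 alternative settings, except Fabp1, which was at -0.42 under quantile normalization. No member passed an adjusted p of 0.05 in the fit as reported (limma). With array weights 8 members, 39 genes of the related lists, and 4176 lower and 1688 higher genes of the table passed; limma reported that these weights did not reach its convergence tolerance. Leaving out 1 library at a time, 0 to 5 members passed, 0 to 19 genes of the related lists, 0 to 2111 genes lower and 0 to 521 higher, with the high ends all without LKO 3. Settings added after seeing the data, without LKO 3, gave 1 member, 14 related genes, 1002 lower and 1099 higher genes after median-ratio scaling, and 2 members, 10 related genes, 659 lower and 687 higher genes with the length trend removed. The lower genes were 0, where 1 was called as reported, with a pseudocount of 0.1, without a filter, with a filter at 5 FPKM, with either length trend removed, and with the replicate block. With that block by library number no member passed, and the count of members past the threshold stayed at 0. The cause of these changes was not tested. The 11 tested shares and ratios moved by less than the spread of the libraries when any 1 library was left out. Signs of small differences could turn. Among them were those of the Slc27a1 share (-0.048 percentage points) without LKO 3 and of the Fabp4 share (0.017 percentage points) without CON 2. Depth in reads is unknown, so no limit from counting can be given, and 3 libraries a group limit the precision.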
